A study of Mus musculus with 9 samples.

Results

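The translation initiation factors are the proteins that bring the ribosome, the initiator tRNA and a capped mRNA together at a start codon. Their genes were followed in blood RNA of mice with and without collagen-induced arthritis (CIA), and of arthritic mice whose ankle was irradiated with sub-terahertz waves. The members were the genes whose symbol begins with Eif and a digit from 1 to 6, which 56 symbols met. The 4 eIF2 kinases were left out as regulators of initiation, and Eif3j1 and Eif3j2 were summed to a single row because reads of these paralogs may not be told apart. This gave 51 members among 20925 genes. Of these, 49 had a mean level of at least 0.1 and were tested, and Eif4a3l1 and Eif4e1b were listed at 0 in all 9 libraries.

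All animals were male DBA/1 mice labelled as 7 weeks old, with 3 libraries in each of 3 groups. The paper gives this as the age at division into groups, before arthritis was induced, and the age at blood sampling is not stated. Ctrl mice had no arthritis. CIA mice were immunised with chick type II collagen in complete Freund's adjuvant and boosted with collagen in incomplete adjuvant. In CIA+THz mice the arthritis was induced in the same way and the swollen ankle received 0.1 THz for 30 min per day over 14 days under isoflurane, whereas anaesthesia of the other groups is not stated. The blood was not taken from the irradiated joint, so the CIA+THz libraries describe circulating cells of locally treated animals. The labels number the libraries without saying that each is a separate animal, so the p-values measure only the spread between libraries.

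Initiation proceeds in steps that divide the members by role. eIF1 and eIF1A hold the small ribosomal subunit open for scanning. eIF2 carries the initiator tRNA as a complex with GTP, and eIF2B recharges eIF2 with GTP. Phosphorylation of the eIF2 alpha subunit blocks eIF2B and is the central switch of the integrated stress response. eIF3 is the large scaffold on the small subunit, and eIF4E, eIF4G and eIF4A bind the cap, bridge it to the ribosome and unwind the leader. eIF5 triggers GTP hydrolysis on eIF2, and eIF5B joins the subunits. In activated lymphocytes and myeloid cells, cap-dependent initiation is controlled by mTORC1 through the eIF4E-binding proteins.

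Many mRNAs of the translation machinery start with a pyrimidine tract at their 5′ end. The starts of 5 members called in at least 1 comparison are shown for this reason. Each sequence is written 5′ to 3′ on the strand of the gene and runs from 20 bases before to 20 bases after the RefSeq start in GRCm38.p6, with CTTT in capitals.
Eif4a2, chr16:23107448-23107487, plus strand: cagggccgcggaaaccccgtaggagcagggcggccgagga
Eif2s1, chr12:78862052-78862091, plus strand: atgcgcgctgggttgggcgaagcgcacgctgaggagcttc
Eif2s3x, chrX:94212632-94212671, minus strand: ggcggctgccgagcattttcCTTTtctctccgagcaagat
Eif3f, chr7:108934395-108934434, plus strand: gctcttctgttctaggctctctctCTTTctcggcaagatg
Eif3d, chr15:77970805-77970844, minus strand: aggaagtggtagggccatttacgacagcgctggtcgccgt
CTTT was found on the strand of the gene in Eif2s3x and Eif3f and not in Eif4a2, Eif2s1 and Eif3d. RefSeq promoters were found for 39 members. Of their 51 promoters, 14 held CTTT or its reverse complement AAAG in this window, or 27.5%, against 28.8% of all 32851 promoters in the table. On the strand of the gene, 10 of the 51 held CTTT, against 15.9% of all promoters. CTTT could lie anywhere in the window, also before the start. These shares therefore do not count pyrimidine tracts at the 5′ end, which were not tested.

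In what follows, called means past an unadjusted limma p of 0.05, and ranges in brackets after a left-out library are those of the log2 difference over the 6 fits that each left out 1. Levels are given as rescaled FPKM, which is fragments per kilobase of transcript scaled to library size, divided by a factor for each library. The deposited FPKM holds no absolute depth. Relative depth was read from the steps between the lowest values, and ran from 1.00 to 1.10 in Ctrl, from 1.01 to 1.27 in CIA and from 1.35 to 1.87 in CIA+THz. Deeper CIA+THz libraries therefore had smaller counting error for a gene of the same level. The factors themselves ran from 0.847 to 1.24. They differed between CIA+THz and CIA by 0.28 on the log2 scale and between CIA+THz and Ctrl by 0.31, and the counts of calls and the medians of these comparisons are also given for the FPKM as deposited. The libraries are labelled blood leukocyte, but the summed level of 10 erythroid genes was between 56569 and 127733, against 407 to 647 for 13 T cell genes, so red-cell RNA was abundant.

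**Figure D1:**
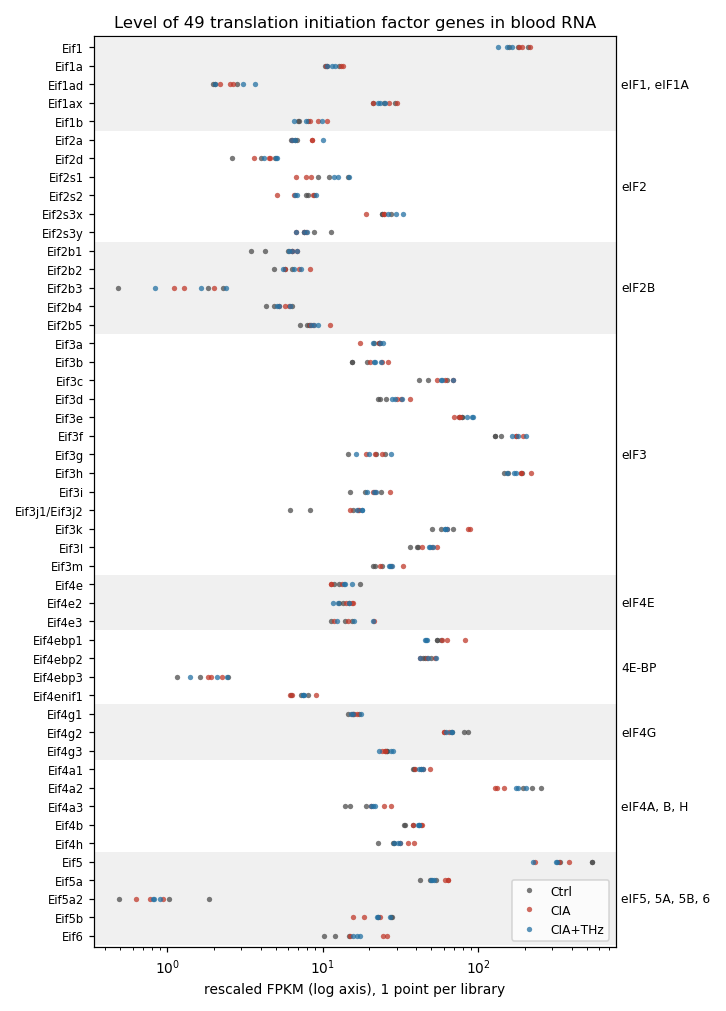
Rescaled FPKM (log axis) of the 49 tested members, by role, with 1 point per library for Ctrl, CIA and CIA+THz. Member means run from 0.918 for Eif5a2 to 360.0 for Eif5. In each comparison of a pair of groups, the libraries overlap for most members.

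The members were well expressed in blood. Their means over 9 libraries had a median of 21.1 rescaled FPKM, and 5 members had a mean of 100 or more, 30 lay from 10 to 100, 13 from 1 to 10, and 1 below 1. The most abundant were Eif5, Eif4a2, Eif3h, Eif1 and Eif3f. The smallest spread over the 9 libraries was that of the scaffold genes Eif4g1 and Eif4g3, with coefficients of variation of 6.05% and 6.34%, and the largest was that of Eif2b3 with 42.7%.

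Comparison of all 3 groups asked which members varied with arthritis or irradiation. By limma's F-test, 18 of 49 members (36.7%) passed an unadjusted p of 0.05, where 21.3% of all 12365 tested genes did. After Benjamini-Hochberg adjustment 1 member was left, Eif4a2 (adjusted p = 0.0324), where 2.53% of all genes passed. Without CIA+THz 1 the count fell to 11.

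The comparison of CIA with Ctrl asked how induced arthritis without irradiation went with these genes. No adjuvant injection of Ctrl mice is stated, so arthritis and immunisation cannot be told apart. Of the 49 members, 14 (28.6%) passed an unadjusted p of 0.05, where 17.3% of all genes did. Of these, 10 were higher in CIA, where 8.86% of all genes were called higher, and 4 were lower, where 8.46% were. The 10 were Eif3b, Eif3d, Eif3f, Eif3j, Eif3k, Eif3l, Eif4a3, Eif4h, Eif5a and Eif6, and the 4 were Eif4a2, Eif2s1, Eif4g2 and Eif5b. The log2 difference was above 0 for 35 members with a median of 0.15, against 49.3% of all genes and a median of -0.01. With an absolute log2 difference above 0.67 as well, 3 members were called, namely Eif4a2, Eif6 and Eif3j, where 9.04% of all genes were. No member passed after adjustment by limma with Benjamini-Hochberg, the smallest adjusted p being 0.0700, where 0.154% of all genes did. The count of 14 fell to 9 without Ctrl 1 and to 8 without CIA 3. The 3 libraries of CIA did not overlap those of Ctrl for 17 members, where 23.5% of all genes did not overlap.

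The comparison of CIA+THz with CIA asked what differed after irradiation. Of the 49 members, 9 (18.4%) passed an unadjusted p of 0.05, where 13.2% of all genes did. Eif2s1, Eif4a2, Eif2s3x and Eif3e were higher, where 5.89% of all genes were, and Eif1, Eif4ebp1, Eif5a, Eif3h and Eif3k were lower, where 7.33% were. With the FPKM as deposited this split became 12 higher and 0 lower, where 19.9% of all genes were called higher and 1.11% lower. The log2 difference was above 0 for 22 members, where it was above 0 for 52.9% of all genes, and the median over the members was -0.02 against 0.03 over all genes. On the FPKM as deposited, 44 members were above 0 with a median of 0.26, where 79.1% of all genes were above 0 with a median of 0.29. Only Eif2s1 also passed the log2 difference of 0.67, where 4.55% of all genes passed both. After adjustment by limma with Benjamini-Hochberg, 0 members and 0.0% of all genes passed, the smallest adjusted p of a member being 0.195. The libraries did not overlap for 10 members, where 19.6% of all genes did not.

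The comparison of CIA+THz with Ctrl asked what set irradiated arthritic mice apart from healthy ones. Of the 49 members, 12 (24.5%) passed an unadjusted p of 0.05, where 18.1% of all genes did. Eif3b, Eif3d, Eif3e, Eif3f, Eif3j, Eif3l, Eif3m, Eif4a3, Eif4b and Eif6 were higher, where 8.39% of all genes were, and Eif4ebp1 and Eif5 were lower, where 9.69% were. With the FPKM as deposited, 25 were called higher and 1 lower, where 21.5% of all genes were called higher and 2.36% lower. The log2 difference was above 0 for 38 members, with a median of 0.12, where it was above 0 for 53.7% of all genes with a median of 0.04. On the FPKM as deposited, 48 members were above 0 with a median of 0.42, where 77.5% of all genes were above 0 with a median of 0.33. With an absolute log2 difference above 0.67 as well, 2 members passed, namely Eif3j and Eif5, where 7.89% of all genes did. No member passed after adjustment by limma with Benjamini-Hochberg, with a smallest adjusted p of 0.121, where 0.105% of all genes did. The count of 12 fell to 6 without Ctrl 1, to 6 without CIA+THz 1 and to 7 without CIA+THz 2. The libraries did not overlap for 15 members, where 23.9% of all genes did not. CIA+THz and CIA were both compared with the same Ctrl libraries.

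**Figure D2:**
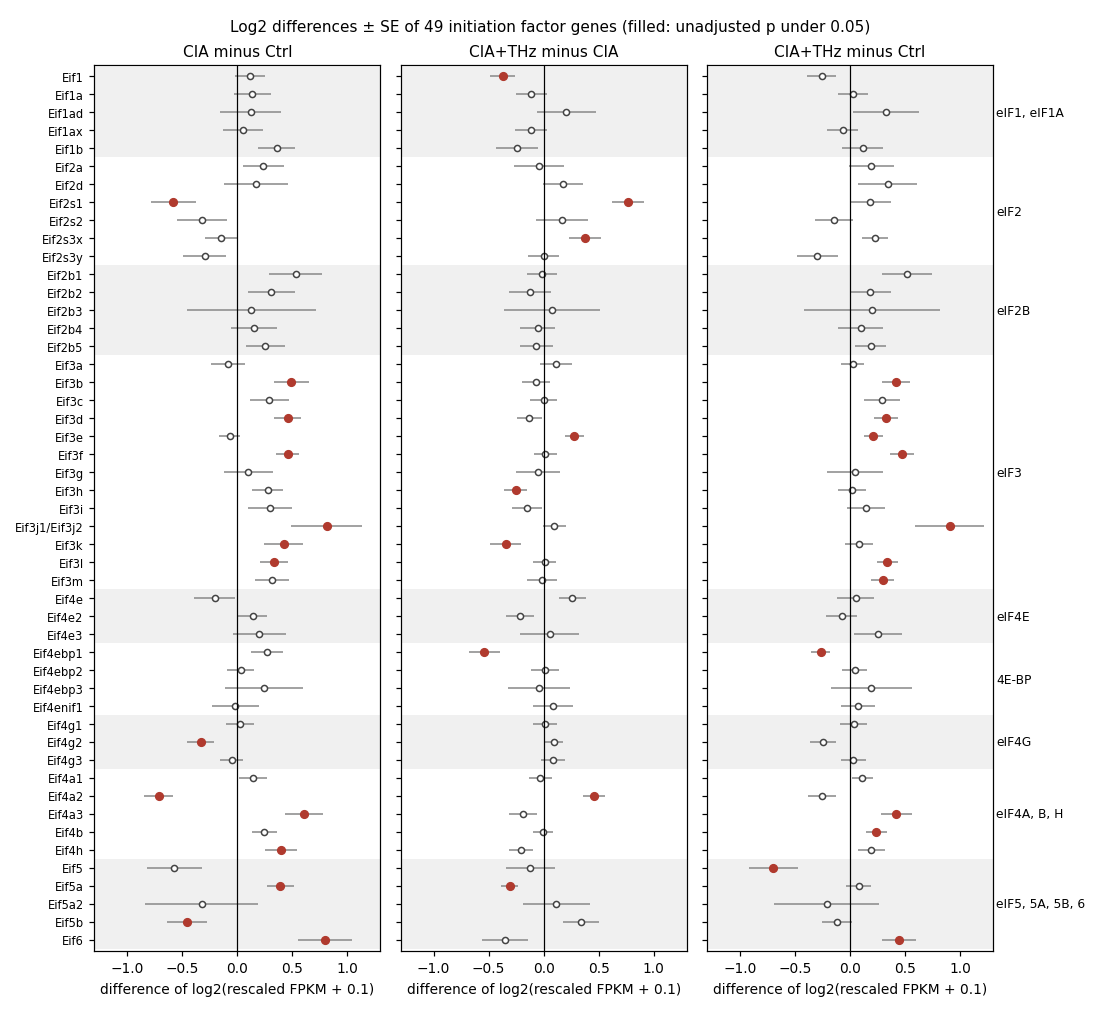
Difference of log2(rescaled FPKM + 0.1) with its SE for the 49 tested members, by role, in the 3 comparisons, with filled points for an unadjusted p under 0.05. Filled points number 14 for CIA minus Ctrl, 9 for CIA+THz minus CIA and 12 for CIA+THz minus Ctrl.

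Marker genes of blood cell types moved along with these groups. Over all genes, 8.86% were called higher in CIA than in Ctrl, 5.89% in CIA+THz than in CIA and 8.39% in CIA+THz than in Ctrl. The shares called lower were 8.46%, 7.33% and 9.69%, in the same order. From CIA to CIA+THz, 13 of 13 T cell genes were higher, with a summed level of 483 to 647 in CIA+THz and 407 to 448 in CIA, and 7 were called. All 12 neutrophil genes were lower, with sums of 10854 to 12339 against 14770 to 19454, and 9 were called. Of 12 monocyte genes, 9 were lower and 7 of them were called, with sums of 3839 to 4197 against 5681 to 6319. B cell genes were higher for 9 of 10 with 3 called, and NK cell genes for 6 of 7 with 1 called. Platelet genes were higher for 1 of 9 with 6 called lower, and erythroid genes for 3 of 10. The erythroid sums were 56569 to 78501 in CIA+THz and 101031 to 112746 in CIA, without overlap, though 0 erythroid genes were called. A sum follows its most abundant genes, and the median log2 difference of the erythroid list was -0.11. Alas2 fell most, by -0.71 ± 0.48 SE (limma, adjusted p = 0.556), and the others lay between -0.31 and 0.04. From Ctrl to CIA, 11 of 12 monocyte genes were higher with 7 called. T cell genes were higher for 0 of 13 with 3 called lower, and erythroid genes for 1 of 10 with 1 called lower. NK cell genes were higher for 1 of 7, with 3 called lower and a median log2 difference of -0.82. B cell genes were higher for 7 of 10 and platelet genes for 5 of 9, with 1 called higher and 1 lower in each list. Of the 12 neutrophil genes, Mmp8 and Cxcr2 were called lower, and the granule genes Camp, Ltf and Ngp were called higher, by 4.86, 4.08 and 3.02 on the log2 scale. From Ctrl to CIA+THz, 10 of 10 B cell genes were higher with 7 called, and 10 of 13 T cell genes with 0 called. Of 12 monocyte genes, 9 were higher, with 6 called higher and 1 lower. Platelet genes were higher for 1 of 9 with 4 called lower, and NK cell genes for 0 of 7. The erythroid list had 0 of 10 higher and 5 called lower. Of the neutrophil genes, 6 were called lower and 3 higher, again Camp, Ltf and Ngp. Every gene of these lists passed the filter on low levels. Fewer cells of a type and less RNA per cell cannot be told apart in blood RNA, and the part of cell composition in the differences of the initiation factors was not tested.

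Among the genes grouped with the scanning ribosome, Eif1 fell from CIA to CIA+THz, and the other 4 genes passed no test. Eif1, whose protein monitors start codon choice, measured 181, 209 and 157 in Ctrl, 215, 191 and 183 in CIA, and 135, 154 and 166 in CIA+THz. All CIA+THz libraries but one were below all Ctrl libraries, and all 3 were below every CIA library. For Eif1, the CIA+THz minus CIA log2 difference was -0.37 ± 0.11 SE (limma, adjusted p = 0.267), and the call held without any 1 library (-0.44 to -0.29), but was lost on the FPKM as deposited. Its paralog Eif1b measured 6.99, 7.08 and 8.08 in Ctrl, 10.8, 8.36 and 9.41 in CIA, and 9.91, 6.53 and 7.87 in CIA+THz. Eif1b did not overlap between Ctrl and CIA, where its log2 difference was 0.36 ± 0.17 SE (limma, adjusted p = 0.334). The eIF1A genes are Eif1ax on the X chromosome and Eif1a. Eif1ax measured 21.0, 29.2 and 25.0 in Ctrl, 26.9, 21.1 and 30.2 in CIA, and 22.9, 23.4 and 25.1 in CIA+THz. Eif1a measured 10.6, 12.7 and 10.4 in Ctrl, 10.5, 13.6 and 13.2 in CIA, and 10.7, 12.0 and 11.5 in CIA+THz. Both eIF1A genes overlapped across all groups, and Eif1ax was above Eif1a in every library. Eif1ad, the least abundant of these genes, measured 1.99, 2.03 and 2.81 in Ctrl, 2.65, 2.20 and 2.52 in CIA, and 3.08, 3.66 and 2.04 in CIA+THz, with overlapping groups. Exons of Eif1ad overlap those of Banf1 on the opposite strand by up to 428 bases.

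In the eIF2 group, the alpha subunit gene Eif2s1 was lowest in CIA and the gamma subunit gene Eif2s3x was highest in CIA+THz. Eif2s1 encodes the subunit whose phosphorylation slows initiation. It measured 14.5, 10.9 and 9.41 in Ctrl, 8.41, 6.72 and 7.82 in CIA, and 11.9, 12.6 and 14.8 in CIA+THz. Every CIA library was below every library of the other groups. For Eif2s1, the CIA minus Ctrl log2 difference was -0.58 ± 0.21 SE (limma, adjusted p = 0.225), and the call was lost without CIA 2, CIA 3 or Ctrl 1 (-0.72 to -0.41). For Eif2s1, the CIA+THz minus CIA log2 difference was 0.77 ± 0.15 SE (limma, adjusted p = 0.195), and the call held without any 1 library (0.67 to 0.84). The CIA+THz minus Ctrl difference was 0.19 ± 0.19 SE (limma, adjusted p = 0.641).

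The gamma subunit, which holds GTP and the tRNA, is encoded on both sex chromosomes. Eif2s3x measured 27.6, 24.1 and 24.2 in Ctrl, 24.9, 19.2 and 24.7 in CIA, and 26.5, 29.8 and 32.7 in CIA+THz. Its CIA+THz libraries were above those of CIA, 1 of them below the highest Ctrl library. For Eif2s3x, the CIA+THz minus CIA log2 difference was 0.38 ± 0.14 SE (limma, adjusted p = 0.339), and the call was lost without CIA 2, CIA+THz 2 or CIA+THz 3 (0.25 to 0.45), as it was without the variance trend. The Y-linked copy Eif2s3y measured 11.3, 8.80 and 7.56 in Ctrl, 7.63, 7.82 and 6.78 in CIA, and 7.94, 6.73 and 7.56 in CIA+THz. It was below Eif2s3x in every library, and its CIA and CIA+THz means were both 7.41. The beta subunit gene Eif2s2 measured 8.12, 8.81 and 7.86 in Ctrl, 8.68, 5.06 and 6.53 in CIA, and 6.61, 6.86 and 9.08 in CIA+THz, with no comparison past the threshold. Eif2a and Eif2d, which can deliver tRNA by other routes, also passed no test. Eif2d, the least abundant of the group, measured 4.02, 4.97 and 2.60 in Ctrl, 3.62, 4.56 and 4.54 in CIA, and 4.9993, 5.12 and 4.23 in CIA+THz.

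The exchange factor eIF2B was without a call in any comparison. All 5 subunit genes had a log2 difference above 0 against Ctrl in both CIA and CIA+THz, of 0.13 to 0.53 and 0.10 to 0.52. Eif2b1, the alpha subunit, measured 6.02, 3.48 and 4.25 in Ctrl, 6.38, 6.80 and 6.34 in CIA, and 6.37, 6.12 and 6.82 in CIA+THz. It did not overlap between Ctrl and either arthritic group, with log2 differences of 0.53 and 0.52 (limma, adjusted p = 0.315 and 0.292). Eif2b5, which encodes the catalytic subunit and was the most abundant of the 5, measured 7.14, 8.23 and 7.97 in Ctrl, 8.30, 8.69 and 11.1 in CIA, and 8.40, 8.86 and 9.39 in CIA+THz. Eif2b3 was the least abundant and measured 2.28, 0.483 and 1.83 in Ctrl, 1.99, 1.28 and 1.12 in CIA, and 2.41, 0.835 and 1.65 in CIA+THz. Its lowest and highest values in Ctrl were farther apart than the group means.

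The 13 eIF3 rows, for the scaffold that organises the small subunit, were mostly higher in the arthritic groups. In CIA, 11 of 13 were above Ctrl with a median log2 difference of 0.31, and 6 were called higher and 0 lower, where 8.86% of all genes were called higher. In CIA+THz, 13 of 13 were above Ctrl with a median of 0.29, and 7 were called higher, where 8.39% of all genes were. Without the Eif3j row these were 5 of 12 and 6 of 12, and with the FPKM as deposited 6 and 11 of 13, where 8.26% and 21.5% of all genes were called higher. Without the variance trend they were 3 and 4 of 13. Between CIA+THz and CIA the median was -0.02, against 0.03 over all genes. There 1 was called higher and 2 lower, where 5.89% and 7.33% of all genes were, and without the trend 0 were called. The FPKM as deposited gave a median of 0.26 for this comparison, against 0.29 over all genes. It had 3 called higher and 0 lower, where 19.9% and 1.11% of all genes were.

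Eif3f, which encodes a subunit with an MPN domain, showed the smallest p among the eIF3 genes. It measured 128, 139.9 and 128 in Ctrl, 175, 195 and 175 in CIA, and 203, 182 and 166 in CIA+THz. All CIA and CIA+THz libraries were above all Ctrl libraries, and CIA and CIA+THz overlapped. For Eif3f, the CIA minus Ctrl log2 difference was 0.46 ± 0.10 SE (limma, adjusted p = 0.107), and the call held without any 1 library (0.41 to 0.50). For Eif3f, the CIA+THz minus Ctrl log2 difference was 0.47 ± 0.11 SE (limma, adjusted p = 0.121), and the call held without any 1 library (0.40 to 0.54). The CIA+THz minus CIA difference was 0.01 ± 0.11 SE (limma, adjusted p = 0.976). Eif3d encodes a subunit that can bind the cap of selected mRNAs, and measured 22.7, 25.5 and 23.5 in Ctrl, 36.6, 32.1 and 30.1 in CIA, and 28.1, 32.6 and 29.2 in CIA+THz. Its Ctrl libraries were again below all others. For Eif3d, the CIA minus Ctrl log2 difference was 0.46 ± 0.13 SE (limma, adjusted p = 0.153), and the call held without any 1 library (0.38 to 0.52). For Eif3d, the CIA+THz minus Ctrl log2 difference was 0.33 ± 0.11 SE (limma, adjusted p = 0.194), and the call was lost without CIA+THz 2 or Ctrl 1 (0.26 to 0.37), as it was without the variance trend. Exons of an antisense gene, Gm17638, overlap those of Eif3d by up to 1058 bases, and strand use in the counting is not given in the sources used here.

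Eif3b, a core subunit, measured 15.5, 15.5 and 19.3 in Ctrl, 26.5, 24.0 and 20.3 in CIA, and 23.8, 21.7 and 21.6 in CIA+THz. Its lowest values were those of Ctrl. For Eif3b, the CIA minus Ctrl log2 difference was 0.49 ± 0.16 SE (limma, adjusted p = 0.197), and the call was lost without CIA 1, Ctrl 1 or Ctrl 2 (0.40 to 0.59). For Eif3b, the CIA+THz minus Ctrl log2 difference was 0.42 ± 0.13 SE (limma, adjusted p = 0.169), and the call held without any 1 library (0.37 to 0.52). Eif3l measured 40.8, 36.4 and 40.4 in Ctrl, 50.3, 43.4 and 54.9 in CIA, and 49.2, 51.1 and 48.5 in CIA+THz, and its Ctrl libraries were below all others. For Eif3l, the CIA minus Ctrl log2 difference was 0.33 ± 0.13 SE (limma, adjusted p = 0.247), and the call was lost without CIA 1, CIA 3, Ctrl 2 or Ctrl 3 (0.25 to 0.42), as it was without the variance trend and on the FPKM as deposited. For Eif3l, the CIA+THz minus Ctrl log2 difference was 0.34 ± 0.09 SE (limma, adjusted p = 0.147), and the call held without any 1 library (0.29 to 0.37). Eif3m measured 24.0, 21.8 and 21.1 in Ctrl, 33.1, 23.3 and 27.5 in CIA, and 26.9, 27.9 and 27.3 in CIA+THz. For Eif3m, the CIA+THz minus Ctrl log2 difference was 0.30 ± 0.10 SE (limma, adjusted p = 0.202), and the call was lost without CIA+THz 2 (0.26 to 0.35), as it was in the fit of all 3 groups and without the variance trend.

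Other eIF3 genes differed between CIA and CIA+THz. Eif3e measured 78.6, 78.4 and 75.4 in Ctrl, 76.1, 70.3 and 75.2 in CIA, and 93.3, 91.1 and 84.8 in CIA+THz. Its CIA+THz libraries were the highest of the 9, and Ctrl and CIA overlapped. For Eif3e, the CIA+THz minus CIA log2 difference was 0.28 ± 0.08 SE (limma, adjusted p = 0.265), and the call held without any 1 library (0.25 to 0.32), but was lost without the variance trend. For Eif3e, the CIA+THz minus Ctrl log2 difference was 0.21 ± 0.09 SE (limma, adjusted p = 0.265). This call was lost without CIA+THz 1, CIA+THz 2, Ctrl 1, Ctrl 2 or Ctrl 3 (0.18 to 0.25). So it was in the fit of all 3 groups, without the variance trend and with a mean of at least 1. It was also lost with a pseudocount of 1 and with the replicate number as a block. Eif3h, the most abundant of the 13, measured 147, 193 and 156 in Ctrl, 219, 189 and 189.9 in CIA, and 169.7, 155 and 176 in CIA+THz. For Eif3h, the CIA+THz minus CIA log2 difference was -0.26 ± 0.10 SE (limma, adjusted p = 0.352). This call was lost without CIA 1, CIA+THz 1 or CIA+THz 2 (-0.30 to -0.18). So it was in the fit of all 3 groups, without the variance trend, on the FPKM as deposited and with the replicate number as a block. Eif3k measured 50.5, 69.0 and 58.1 in Ctrl, 89.1, 86.4 and 63.5 in CIA, and 62.8, 61.4 and 61.7 in CIA+THz. CIA 1 and CIA 2 were the highest, and CIA 3 lay within the range of Ctrl. For Eif3k, the CIA minus Ctrl log2 difference was 0.42 ± 0.18 SE (limma, adjusted p = 0.282). This call was lost without CIA 1, CIA 2, Ctrl 1 or Ctrl 3 (0.31 to 0.58). So it was without the variance trend and with the replicate number as a block. For Eif3k, the CIA+THz minus CIA log2 difference was -0.35 ± 0.14 SE (limma, adjusted p = 0.363). This call was lost without CIA 1, CIA 2, CIA+THz 1, CIA+THz 2 or CIA+THz 3 (-0.50 to -0.26). So it was without the variance trend, on the FPKM as deposited and with the replicate number as a block. Eif3a, Eif3c, Eif3g and Eif3i passed no test. Their means over 9 libraries were 22.3, 58.2, 21.2 and 21.1, and the largest of their absolute log2 differences was 0.30, that of Eif3i between CIA and Ctrl.

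Eif3j, a loosely bound subunit, was the least abundant row of the 13 and its value is uncertain. The summed row measured 8.30, 15.7 and 6.13 in Ctrl, 16.9, 15.0 and 17.2 in CIA, and 17.9, 17.9 and 16.7 in CIA+THz. Ctrl 1 and Ctrl 3 were low and Ctrl 2 lay within the range of the other groups. In Ctrl 1 and Ctrl 3 the value came from Eif3j1, at 8.30 and 6.13, with Eif3j2 listed at 0. In Ctrl 2 it came from Eif3j2, at 15.7, with Eif3j1 at 0.0528. Eif3j2 ran from 15.0 to 17.8 in the 6 other libraries, with Eif3j1 at 0 to 1.95. The low Ctrl values were those of the libraries with the value on Eif3j1, and how the counting treated fragments that match both copies was not tested. For Eif3j, the CIA minus Ctrl log2 difference was 0.81 ± 0.32 SE (limma, adjusted p = 0.265). This call was lost without CIA 1, CIA 2, CIA 3, Ctrl 1 or Ctrl 3 (0.51 to 1.19). So it was without the variance trend and with the replicate number as a block. For Eif3j, the CIA+THz minus Ctrl log2 difference was 0.91 ± 0.31 SE (limma, adjusted p = 0.204), and the call was lost without CIA+THz 1, CIA+THz 2, CIA+THz 3, Ctrl 1 or Ctrl 3 (0.61 to 1.28).

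**Figure D3:**
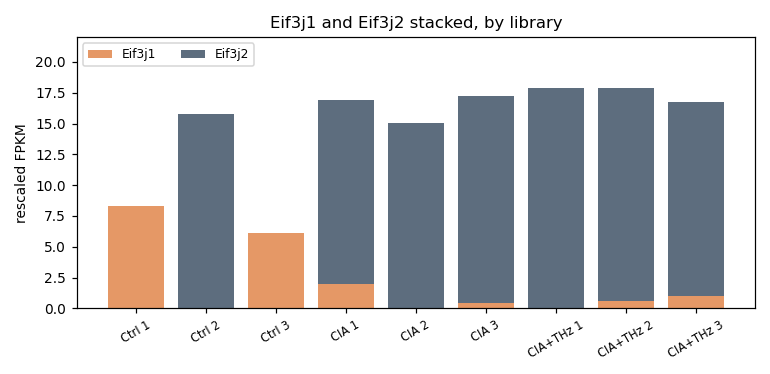
Rescaled FPKM of Eif3j1 and Eif3j2 stacked for each of the 9 libraries. Ctrl 1 and Ctrl 3 show Eif3j1 alone, at 8.30 and 6.13, while the other 7 libraries are mostly Eif3j2.

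The cap-binding proteins passed no test in any comparison, and their groups overlapped except for Eif4e between CIA and CIA+THz. Eif4e, the main cap-binding protein, measured 17.4, 12.7 and 11.9 in Ctrl, 11.3, 11.3 and 13.4 in CIA, and 15.4, 14.0 and 13.7 in CIA+THz. The CIA+THz minus CIA difference was 0.26 ± 0.12 SE (limma, adjusted p = 0.421). Eif4e2, which binds caps and represses, measured 14.9, 12.7 and 13.5 in Ctrl, 15.6, 15.4 and 14.2 in CIA, and 14.8, 12.5 and 11.7 in CIA+THz. Eif4e3, the third family member, measured 15.5, 13.9 and 11.3 in Ctrl, 14.7, 11.9 and 21.3 in CIA, and 21.0, 16.0 and 12.4 in CIA+THz, and was the most abundant of the 3 by its mean. The 3 means lay between 13.4 and 15.3, and the order of the genes changed between libraries.

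Of the repressors that bind eIF4E, Eif4ebp1 was lowest in CIA+THz. Its protein, 4E-BP1, sequesters eIF4E until mTORC1 phosphorylates it. It measured 54.3, 57.6 and 54.8 in Ctrl, 58.3, 82.2 and 62.9 in CIA, and 45.5, 46.8 and 46.1 in CIA+THz. The CIA+THz libraries were the lowest 3 of 9 and close together, and the CIA libraries the highest 3. For Eif4ebp1, the CIA+THz minus CIA log2 difference was -0.54 ± 0.14 SE (limma, adjusted p = 0.237), and the call held without any 1 library (-0.64 to -0.39), but was lost on the FPKM as deposited. For Eif4ebp1, the CIA+THz minus Ctrl log2 difference was -0.27 ± 0.09 SE (limma, adjusted p = 0.182), and the call held without any 1 library (-0.28 to -0.24), but was lost in the fit of all 3 groups, without the variance trend and on the FPKM as deposited. With the FPKM as deposited, CIA+THz minus Ctrl was 0.04. The CIA minus Ctrl difference was 0.27 ± 0.15 SE (limma, adjusted p = 0.386). Eif4ebp2 measured 49.6, 45.6 and 44.1 in Ctrl, 42.6, 46.9 and 53.1 in CIA, and 53.9, 42.6 and 47.4 in CIA+THz. Eif4ebp3, the least abundant, measured 2.46, 1.15 and 1.63 in Ctrl, 2.25, 1.92 and 1.83 in CIA, and 2.09, 2.43 and 1.40 in CIA+THz, and shares exons of up to 327 bases with AC115631.1. Neither paralog passed a test. Eif4enif1, which carries eIF4E to the nucleus, had a mean of 7.34 and no call.

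The eIF4G scaffolds varied little, apart from Eif4g2. Eif4g2 encodes a relative of eIF4G that lacks the eIF4E-binding site, and was the most abundant of the 3. It measured 86.2, 81.3 and 67.6 in Ctrl, 65.0, 60.0 and 60.7 in CIA, and 62.2, 67.1 and 68.4 in CIA+THz. The Ctrl libraries were above those of CIA. For Eif4g2, the CIA minus Ctrl log2 difference was -0.33 ± 0.12 SE (limma, adjusted p = 0.239), and the call was lost without CIA 2, CIA 3, Ctrl 1 or Ctrl 2 (-0.44 to -0.26), as it was without the variance trend. Eif4g1, the main scaffold and the least abundant, measured 14.5, 15.8 and 17.1 in Ctrl, 15.9, 15.4 and 16.6 in CIA, and 15.2, 17.6 and 15.6 in CIA+THz. Eif4g3 measured 25.9, 25.8 and 25.4 in Ctrl, 25.2, 24.1 and 25.1 in CIA, and 23.1, 27.7 and 28.4 in CIA+THz. Neither of these passed a test, and their log2 differences lay within -0.05 to 0.08 in all 3 comparisons.

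Among the helicases and their cofactors, Eif4a2 fell in CIA, and was higher in CIA+THz than in CIA, while its close paralog Eif4a1 passed no test. Eif4a2 encodes an RNA helicase of the cap complex and was the most abundant of the 5. It measured 222, 254 and 195 in Ctrl, 132, 128 and 147 in CIA, and 175, 181 and 204 in CIA+THz. The CIA libraries were the lowest 3 of 9, and the lowest Ctrl library lay within the range of CIA+THz. For Eif4a2, the CIA minus Ctrl log2 difference was -0.71 ± 0.13 SE (limma, adjusted p = 0.0700), and the call held without any 1 library (-0.81 to -0.62). For Eif4a2, the CIA+THz minus CIA log2 difference was 0.46 ± 0.10 SE (limma, adjusted p = 0.210), and the call held without any 1 library (0.39 to 0.52). The CIA+THz minus Ctrl difference was -0.25 ± 0.13 SE (limma, adjusted p = 0.340). Eif4a1 measured 37.9, 43.0 and 38.8 in Ctrl, 39.5, 49.0 and 44.0 in CIA, and 43.1, 44.5 and 41.6 in CIA+THz, and overlapped across groups. Eif4a2 hosts small nucleolar RNAs, and its exons overlap those of Rfc4 on the opposite strand by up to 186 bases.

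Eif4a3, a helicase of the exon junction complex and the least abundant of the 5, was higher in both arthritic groups. It measured 15.0, 13.9 and 18.9 in Ctrl, 20.5, 24.8 and 27.5 in CIA, and 21.2, 20.5 and 21.9 in CIA+THz. The 3 Ctrl libraries were the lowest of the 9. For Eif4a3, the CIA minus Ctrl log2 difference was 0.61 ± 0.17 SE (limma, adjusted p = 0.164), and the call held without any 1 library (0.51 to 0.74). For Eif4a3, the CIA+THz minus Ctrl log2 difference was 0.42 ± 0.14 SE (limma, adjusted p = 0.194), and the call was lost without CIA+THz 1, CIA+THz 3, Ctrl 1 or Ctrl 2 (0.33 to 0.55). The helicase cofactor genes are Eif4b and Eif4h. Eif4b measured 34.1, 38.0 and 33.3 in Ctrl, 43.7, 38.1 and 43.3 in CIA, and 41.0, 41.7 and 41.5 in CIA+THz. For Eif4b, the CIA+THz minus Ctrl log2 difference was 0.24 ± 0.10 SE (limma, adjusted p = 0.253). This call was lost without CIA+THz 1, CIA+THz 2, CIA+THz 3, Ctrl 1 or Ctrl 3 (0.20 to 0.30). So it was in the fit of all 3 groups and without the variance trend. It was also lost with a mean of at least 1 and with the replicate number as a block. Eif4h measured 28.6, 22.9 and 28.6 in Ctrl, 31.3, 38.9 and 35.3 in CIA, and 31.5, 28.9 and 30.7 in CIA+THz. For Eif4h, the CIA minus Ctrl log2 difference was 0.40 ± 0.14 SE (limma, adjusted p = 0.231). This call was lost without CIA 2, CIA 3 or Ctrl 2 (0.29 to 0.48). So it was without the variance trend, on the FPKM as deposited and with the replicate number as a block.

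**Figure D4:**
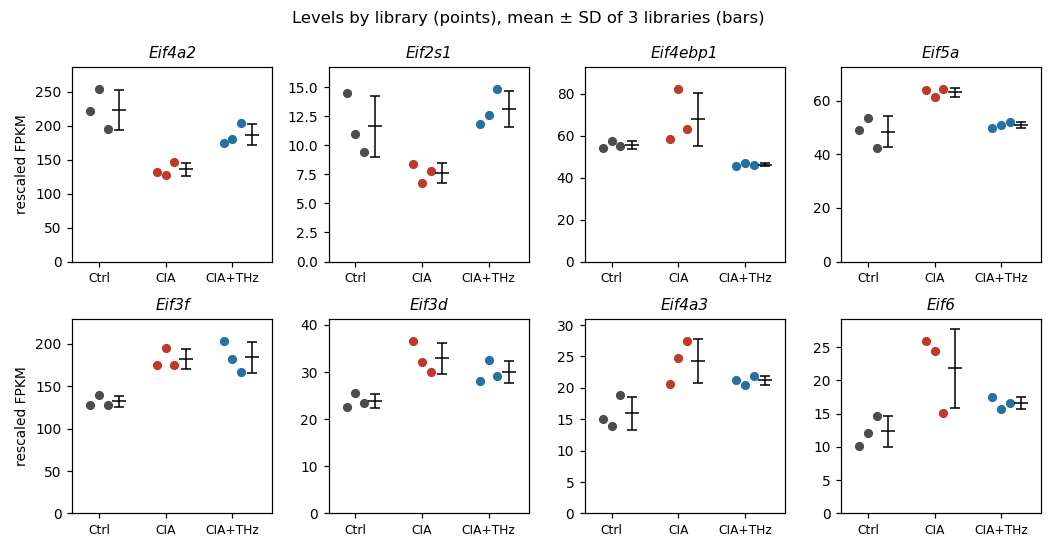
Rescaled FPKM of 8 members in each library (points) with the mean and SD of the 3 libraries of each group (bars), on axes from 0. Eif4a2 and Eif2s1 are lowest in CIA, Eif4ebp1 is lowest in CIA+THz, Eif5a is highest in CIA, and Eif3f, Eif3d, Eif4a3 and Eif6 are lowest in Ctrl.

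The factors of the last steps did not move together. Eif5, whose protein activates the GTPase of eIF2, was the most abundant member. It measured 540.1, 540.1 and 339 in Ctrl, 386, 234 and 332 in CIA, and 227, 319 and 322 in CIA+THz. Ctrl 1 and Ctrl 2 stood above the other 7 libraries, and Ctrl 3 lay within the range of CIA. For Eif5, the CIA+THz minus Ctrl log2 difference was -0.69 ± 0.22 SE (limma, adjusted p = 0.182), and the call was lost without CIA+THz 1, Ctrl 1 or Ctrl 2 (-0.92 to -0.53). The CIA minus Ctrl difference was -0.57 ± 0.25 SE (limma, adjusted p = 0.301). Eif5b measured 22.6, 27.8 and 28.0 in Ctrl, 23.3, 15.8 and 18.4 in CIA, and 27.1, 22.7 and 22.5 in CIA+THz. For Eif5b, the CIA minus Ctrl log2 difference was -0.46 ± 0.18 SE (limma, adjusted p = 0.252). This call was lost without CIA 2, CIA 3, Ctrl 2 or Ctrl 3 (-0.61 to -0.33). So it was without the variance trend, on the FPKM as deposited and with the replicate number as a block. Its exons overlap those of Rev1 on the opposite strand by up to 419 bases.

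Eif5a was highest in CIA. Its protein, which needs the modified residue hypusine, helps ribosomes through difficult peptide bonds. It measured 49.2, 53.6 and 42.3 in Ctrl, 63.8, 61.3 and 64.3 in CIA, and 49.9, 50.9 and 51.9 in CIA+THz. The CIA libraries were above all 6 others. For Eif5a, the CIA minus Ctrl log2 difference was 0.39 ± 0.12 SE (limma, adjusted p = 0.186), and the call held without any 1 library (0.30 to 0.47), but was lost without the variance trend. For Eif5a, the CIA+THz minus CIA log2 difference was -0.31 ± 0.08 SE (limma, adjusted p = 0.230), and the call held without any 1 library (-0.33 to -0.29), but was lost on the FPKM as deposited. The CIA+THz minus Ctrl difference was 0.08 ± 0.11 SE (limma, adjusted p = 0.741). Its paralog Eif5a2, the least abundant member, measured 0.492, 1.86 and 1.03 in Ctrl, 0.778, 0.626 and 0.943 in CIA, and 0.828, 0.895 and 0.812 in CIA+THz, with a Ctrl range that covered both other groups. Eif6 keeps the large ribosomal subunit from joining too early, and measured 10.2, 12.1 and 14.7 in Ctrl, 25.9, 24.4 and 15.1 in CIA, and 17.5, 15.8 and 16.6 in CIA+THz. CIA 1 and CIA 2 were high, whereas CIA 3 was near the highest Ctrl library. For Eif6, the CIA minus Ctrl log2 difference was 0.79 ± 0.25 SE (limma, adjusted p = 0.186), and the call was lost without CIA 1, CIA 2 or Ctrl 1 (0.65 to 1.04). For Eif6, the CIA+THz minus Ctrl log2 difference was 0.45 ± 0.16 SE (limma, adjusted p = 0.210), and the call was lost without CIA+THz 1, CIA+THz 3, Ctrl 1 or Ctrl 2 (0.32 to 0.58), as it was in the fit of all 3 groups.

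The other genes of the pathway were read in the same fits. The shares of all genes called in each comparison are those given beside the marker genes. Of 6 genes for eIF2 kinases and regulators of the eIF2 phosphatase, none was called between CIA and Ctrl or between CIA+THz and CIA. Ppp1r15a, which recruits the phosphatase under stress, was lower in CIA+THz than in Ctrl by -0.49 ± 0.20 SE on the log2 scale (limma, adjusted p = 0.259). A further list held 14 genes around mTORC1, S6 kinase, the eIF4E kinases and the poly(A)-binding proteins. Of these, 1 was called higher and 4 lower in CIA than in Ctrl, where 8.86% and 8.46% of all genes were. The 4 were Pabpc1, Paip2, Paip2b and Pdcd4, with log2 differences of -0.71, -0.50, -0.68 and -0.61, and the 1 was Mknk2, an eIF4E kinase, at 0.28. Pdcd4 encodes an inhibitor of eIF4A. Pdcd4, Paip2b and Larp1 were called higher in CIA+THz than in CIA, by 0.54, 0.57 and 0.39. Against Ctrl, CIA+THz had Larp1 called higher and Pabpc1 and Paip2 lower.

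Of 8 elongation factor genes, Eef1g and Eef2 were called higher in CIA than in Ctrl, by 0.33 and 0.46 on the log2 scale. Eef1b2, Eef1d and Eef2 were called lower in CIA+THz than in CIA, with differences of -0.46, -0.67 and -0.30. Against Ctrl, CIA+THz had Eef1g called higher and Eef1d lower. Of 6 termination and recycling genes, Etf1, a release factor, was called higher in CIA+THz than in Ctrl by 0.33, and no other call was made. Neither of the 2 hypusination genes was called in any comparison.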

How the data were processed

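Blood RNA of 9 mouse libraries, 3 each of Ctrl, CIA and CIA+THz, was sequenced by the authors as paired reads on a HiSeq instrument. The authors deposited FPKM values by gene symbol, and the submitters' processing notes name mm10, HISAT2, StringTie, DESeq2 and bcl2fastq 2.0. The strand setting and annotation are not given in the sources used here. FPKM values were rescaled with a factor for each library, the median ratio to the geometric mean of the genes detected everywhere, and log2(rescaled FPKM + 0.1) was tested for the 12365 genes with a mean of at least 0.1, so differences of low genes are understated. limma 3.58.1 (R 4.3.3) was fitted with a variance trend, across the 3 groups and for each pair on its 6 libraries, with a two-sided unadjusted p of 0.05 as the criterion and an absolute log2 difference of 0.67 as a second one. The fit was also run on simulated data, with changes larger than most member differences given here and a single dispersion for all genes. That run does not check changes of the size reported here. FPKM keeps no absolute depth, and relative depth came from 36 library pairs with 26 to 74 genes each below 0.1.

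Groups came from the sample labels. All members were accounted for by role. Values in every library were given for members past the criterion in any comparison, the most and least abundant of each role, and paralogs. The members and lists were chosen with earlier results of these data known. Positions are those of GRCm38.p6 in RefSeq, and exon overlaps those of GENCODE. Alternatives were the FPKM as deposited, other filters, a pseudocount of 1, no trend, a shared fit, adjusted p-values, separate Eif3j rows, a replicate block and leaving out each library.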

Additional observations from a re-analysis of the deposited data

How the results depend on the processing

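Of the 35 calls on single members over the 3 comparisons, 15 passed in every fit without a library. Calls lost were 16 without the variance trend, 8 with the replicate block, 6 in the fit of all 3 groups, 2 with a mean of at least 1, 1 with a pseudocount of 1 and 0 without a filter. The FPKM as deposited lost 7 and reversed 2, Eif3h between CIA+THz and CIA to 0.022 and Eif4ebp1 between CIA+THz and Ctrl to 0.039. These 2 values lay near 0 and did not pass the test, and the factor shift of 0.28 and 0.31 on the log2 scale is part of how this alternative is made. It gave 26 calls between CIA+THz and Ctrl in place of 12, and with the fold criterion 2 in place of 1 against CIA and 6 in place of 2 against Ctrl. Without the trend the calls were 7 for CIA against Ctrl, 5 for CIA+THz against CIA, 7 for CIA+THz against Ctrl and 10 across the 3 groups, and the cause was not tested. Adjusted by Benjamini-Hochberg over all genes, limma gave 0 in every pair, with or without the fold criterion, and 1 across the 3 groups, against 14, 9 and 12 at an unadjusted p of 0.05.

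Leaving out each library gave 8 to 13 calls for CIA against Ctrl, 6 to 11 for CIA+THz against CIA, 6 to 12 for CIA+THz against Ctrl and 11 to 16 across the groups. With the fold criterion the counts were 1 to 5, 1 to 1 and 0 to 1 in the same order of pairs, with 1 without CIA 2 and 5 without Ctrl 3 in the first pair, and no fit of the last reached its count of 2. Libraries with the same number did not deviate together (correlations of -0.051 to 0.032), and the labels state no pairing. With 3 libraries a group this check cannot exclude that the numbers mark shared handling. With the replicate number as a block the calls were 10, 8 and 10 for the pairs and 12 across the groups. FPKM without counts leaves the depth of each value unknown, and 3 libraries a group limit each call.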

Other observations

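Some ratios of members within a library were computed after the values had been seen and carry no test. The ratio of Eif4a2 to Eif4a1, which does not depend on the scaling factor of a library, ran from 5.01 to 5.91 in Ctrl, from 2.61 to 3.35 in CIA and from 4.05 to 4.90 in CIA+THz, so the 3 groups did not overlap. The ratio of Eif5a to Eif5b ran from 1.51 to 2.17 in Ctrl, from 2.74 to 3.88 in CIA and from 1.84 to 2.31 in CIA+THz, with CIA above the rest. The Eif4ebp1 to Eif4e ratio ran from 3.12 to 4.61 in Ctrl, from 4.70 to 7.30 in CIA and from 2.95 to 3.38 in CIA+THz. Ctrl and CIA+THz overlapped. The Eif4ebp1 to Eif4ebp2 ratio ran from 1.09 to 1.26 in Ctrl, from 1.18 to 1.75 in CIA and from 0.845 to 1.10 in CIA+THz. For this ratio Ctrl overlapped both other groups, and CIA lay above CIA+THz. The ratio of Eif2s1 to Eif2s2 ran from 1.20 to 1.79 in Ctrl, from 0.969 to 1.33 in CIA and from 1.63 to 1.83 in CIA+THz.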
